A study of Mus musculus with 6 samples.

Results

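The chemokine and oxysterol receptors described here are 9 genes, Cxcr3, Cxcr4, Cxcr6, Ccr2, Ccr4, Ccr6, Ccr8, Ccr9 and Gpr183, chosen by name and not by a cut on a measured value. Earlier results of these data were known when they were chosen. All 9 were found among the 22653 genes of the deposited table, as 16 of its 29868 transcripts. RNA was sequenced from CD4 T cells of wild-type C57/BL6 mice that had been sorted as naive and activated through CD3 and CD28 by plate-bound antibody (10 ug/ml), while antibodies blocked IFN-gamma and IL-4 (Th0 conditions). After 36 hours they received a retrovirus and then stayed in culture for 2 days, while another label gives 3 days of activation. In 3 libraries the MigR1 vector carried the cDNA of Blimp-1, the transcriptional repressor encoded by Prdm1, and in 3 libraries the MigR1 vector was empty. Cells with the GFP marker of the vector were sorted in both groups, so all 6 libraries are from transduced cells. The labels name 3 independent biological replicates per vector and give no age. Blimp-1 was driven by the retrovirus, not by its own gene.

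Chemokine receptors are G protein-coupled receptors that sense small secreted proteins, the chemokines, and steer T cells along their gradients. Activated helper T cells acquire different sets of them, and each set leads cells to different tissues and partners. Gpr183, also called Ebi2, belongs to the same receptor superfamily but binds oxysterols, which are oxidised forms of cholesterol, and guides activated T cells and B cells within lymphoid tissue.

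Levels are in FPKM, reads per kilobase of transcript and corrected for the depth of the library, and transcripts were summed per gene. Differences are Blimp-1 minus empty vector on the log2(FPKM + 1) scale, which understates changes of low genes. A gene was tested if it reached 1 FPKM in at least 3 of the 6 libraries, and 10872 genes did. Depth, estimated from the lowest FPKM values, was 33.9 to 46.1 M reads in Blimp-1 libraries and 17.3 to 38.7 M reads in empty vector libraries. Prdm1 was at 9.91, 12.8 and 9.45 FPKM in Blimp-1 cells (replicates 1 to 3), against 0.996, 2.03 and 1.38 FPKM in empty vector cells. The T cell markers Cd3d, Cd3e, Cd3g, Cd4 and Cd28 summed to 1410 to 1560 FPKM in Blimp-1 cells and 1360 to 1700 FPKM in empty vector cells. Of the markers of CD8 T cells, Cd8a was at 0.1 to 0.169 FPKM in Blimp-1 cells and 0.133 to 0.167 FPKM in empty vector cells, and Cd8b1 at 7.83 to 10.9 FPKM in Blimp-1 cells and 7.01 to 10.2 FPKM in empty vector cells. The replicate numbers were taken to pair the libraries, because libraries of the same number deviated together from the mean of their vector (Pearson correlations across genes of 0.80, 0.81 and 0.70 in pairs 1 to 3).

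None of the receptors passed the test across all genes when the 6 libraries were compared. Cxcr3, Ccr6, Ccr4 and Ccr8 were each higher in Blimp-1 cells in 3 of 3 pairs, and the other receptors differed in direction between pairs. Of all tested genes, 22.8% were higher in 3 of 3 pairs and 22.8% were lower. For Ccr6 the filter favoured the higher direction. In limma without a term for the replicate, 0 of the 8 tested receptors were called at an adjusted p of 0.05 (adjusted p = 0.998 for each), where 0.0% of all genes were called as higher and 0.0% as lower. With the replicate number as a block 0 of 8 were called again, where 0.0092% of all genes were called as higher and 0.0092% as lower. Prdm1, whose cDNA the vector carried, was not called without the block (limma adjusted p = 0.0569). It was called as higher with the block (limma adjusted p = 0.00504). A receptor that was not called is thus not shown to be unchanged. At an unadjusted limma p below 0.05, the fit without the block passed 0.671% of all genes as higher and 0.46% as lower, and the blocked fit 9.77% as higher and 10.7% as lower. Cxcr3 was below 0.05 with the block. Ccr6 was below 0.05 in both fits, but it was tested through its Blimp-1 libraries alone, and nothing is read from its count. Without both replicate 3 libraries the blocked fit, which then has 1 residual degree of freedom, called 3 receptors as higher, Cxcr3 (limma adjusted p = 0.00217), Ccr8 (0.0326) and, with the same limit, Ccr6 (0.00595), where 4.97% of all genes were called as higher and 6.18% as lower. Without pair 1 or pair 2 it called 0 receptors, where 0.0092% and 0.0276% of all genes were called as higher and 0.0184% and 0.0828% as lower. With all 6 libraries the 8 tested receptors had a positive log2 fold change, as had 47.9% of all genes tested, with a median of 0.16 for the receptors and -0.01 for all genes. The filter favoured this for Ccr6, and the value of 4 of the 8, Ccr2, Cxcr6, Gpr183 and Cxcr4, turned negative when single libraries were left out. Those fits had no block and left a library without its pair. With whole pairs left out of the blocked fit, Ccr2, Gpr183 and Cxcr4 turned negative without pair 3, and Cxcr6 stayed positive.

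**Figure D1:**
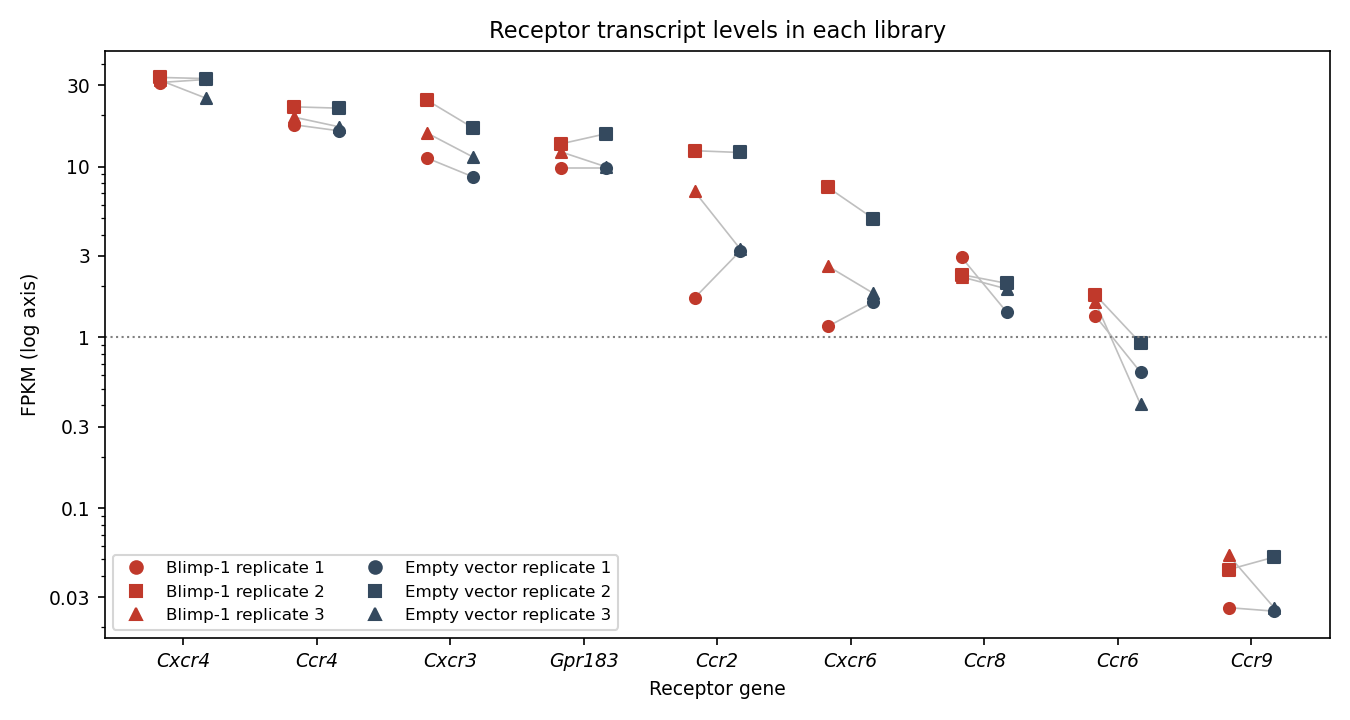
FPKM (log axis) of the 9 receptor genes in each library, ordered by mean level, in Blimp-1 cells in red and empty vector in dark blue, marker shapes for replicates 1 to 3 and grey lines joining libraries of the same number. The dotted line marks 1 FPKM. Cxcr4 is highest and Ccr9 lies far below the line, and for Ccr6 and Ccr8 the Blimp-1 points all lie above the empty vector points. Of all tested genes, 2.29% did not overlap in this direction and 2.34% in the other. Ccr6 was tested through its Blimp-1 libraries alone.

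The receptors spanned a wide range of levels in these cells. By mean over all 6 libraries the order was Cxcr4 (31.1 FPKM), Ccr4 (19.1 FPKM), Cxcr3 (14.7 FPKM), Gpr183 (11.8 FPKM), Ccr2 (6.64 FPKM), Cxcr6 (3.28 FPKM), Ccr8 (2.15 FPKM), Ccr6 (1.12 FPKM) and Ccr9 (0.0375 FPKM). The ranges over the libraries were separate only between Cxcr4 and Ccr4 and between Ccr6 and Ccr9. The other neighbours in this order overlapped, and Cxcr6 was above Ccr8 in 4 of 6 libraries. Among all genes tested, Cxcr4 stood at percentile 78.6 of mean FPKM, Cxcr3 at 58.1 and Ccr6 at 1.6. Over 23 chemokine receptor genes, typical and atypical, summed FPKM was 246 to 336 in Blimp-1 cells and 255 to 348 in empty vector cells. Ccr7, which leads naive and central memory T cells into lymph nodes and is not one of the 9 genes, took 72.1%, 66.1% and 62.7% of that sum in Blimp-1 cells (replicates 1 to 3), against 73.7%, 70.9% and 72.8% in empty vector cells. The 8 chemokine receptors among the 9 genes took 24.3%, 31.1% and 32.8% in Blimp-1 cells, against 22.5%, 26.4% and 24% in empty vector cells. Their share was thus higher in Blimp-1 cells in each pair, while the ranges of the vectors overlapped. Of single tested genes, 22.8% were higher in 3 of 3 pairs. A share also depends on the rest of the sum, and Ccr7 differed by -0.08, -0.15 and -0.26 on the log2 scale in pairs 1 to 3. The part of each in the shares was not tested.

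Cxcr3, the receptor for the interferon-induced chemokines Cxcl9, Cxcl10 and Cxcl11 and a mark of Th1 and effector cells, was at 11.2, 24.4 and 15.7 FPKM in Blimp-1 cells (replicates 1 to 3), against 8.72, 16.9 and 11.4 FPKM in empty vector cells. Replicate 2 was the highest and replicate 1 the lowest with either vector, and the groups overlapped although each Blimp-1 library was above its own pair. Cxcr3 averaged 17.1 ± 6.7 FPKM in Blimp-1 cells and 12.4 ± 4.18 FPKM in empty vector cells (SD, n = 3 each), with a ratio of 1.38. The log2 differences of 0.33, 0.50 and 0.42 in pairs 1 to 3 lay close together. The log2 fold change was 0.42, with a 95% interval of -0.32 to 1.15 without the block (limma adjusted p = 0.998) and of 0.25 to 0.59 with it (SE 0.07, limma adjusted p = 0.142). It was 0.14 without Blimp-1 replicate 2, 0.67 without Blimp-1 replicate 1, 0.21 without empty vector replicate 1 and 0.65 without empty vector replicate 2. Those fits had no block and kept the other library of the pair. With whole pairs left out of the blocked fit, the value was 0.46, 0.38 and 0.42 without pairs 1, 2 and 3.

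Ccr6, the receptor for Ccl20 and a mark of Th17 cells, was at 1.34, 1.78 and 1.62 FPKM in Blimp-1 cells (replicates 1 to 3), against 0.625, 0.927 and 0.405 FPKM in empty vector cells. The groups did not overlap, where 2.29% of all tested genes did not overlap in this direction and 2.34% in the other. Ccr6 reached 1 FPKM in no empty vector library and met the filter through the Blimp-1 libraries alone, so a gene like this had to be higher in Blimp-1 cells to be tested, and its interval and p are a description. The average was 1.58 ± 0.226 FPKM in Blimp-1 cells and 0.652 ± 0.262 FPKM in empty vector cells (SD, n = 3 each), with a ratio of 2.42. The log2 fold change was 0.65, with a 95% interval of 0.27 to 1.03 without the block (limma adjusted p = 0.998) and of 0.38 to 0.92 with it (SE 0.11, limma adjusted p = 0.142). These levels rest on few reads. With transcript lengths from GENCODE, they came to an estimated 88.7, 119 and 80.9 reads in the Blimp-1 libraries and 15.5, 54.9 and 11.1 reads in the empty vector libraries, which were also sequenced less deeply in each pair.

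The 7 Ccr6 transcripts in the table belong, by GENCODE, to 1 upstream start and to several downstream starts. The transcript of the upstream start was at 0.775, 0.73 and 0.861 FPKM in Blimp-1 cells (replicates 1 to 3), against 0.205, 0.583 and 0.193 FPKM in empty vector cells. The 6 transcripts of the downstream starts summed to 0.561, 1.05 and 0.754 FPKM in Blimp-1 cells, against 0.419, 0.344 and 0.213 FPKM in empty vector cells. Neither set of values overlapped between the vectors. Both are parts of the Ccr6 total, which met the filter through its Blimp-1 libraries alone, so they are not separate results. No share of all transcripts without overlap was computed. The share of single transcripts was unstable between libraries. NM_009835 took 41.9%, 20.6% and 31.8% of the Ccr6 total in Blimp-1 cells, against 0%, 37.1% and 52.5% in empty vector cells. With so few reads, how the authors' quantification divided them among the transcripts cannot be checked here.

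**Figure D2:**
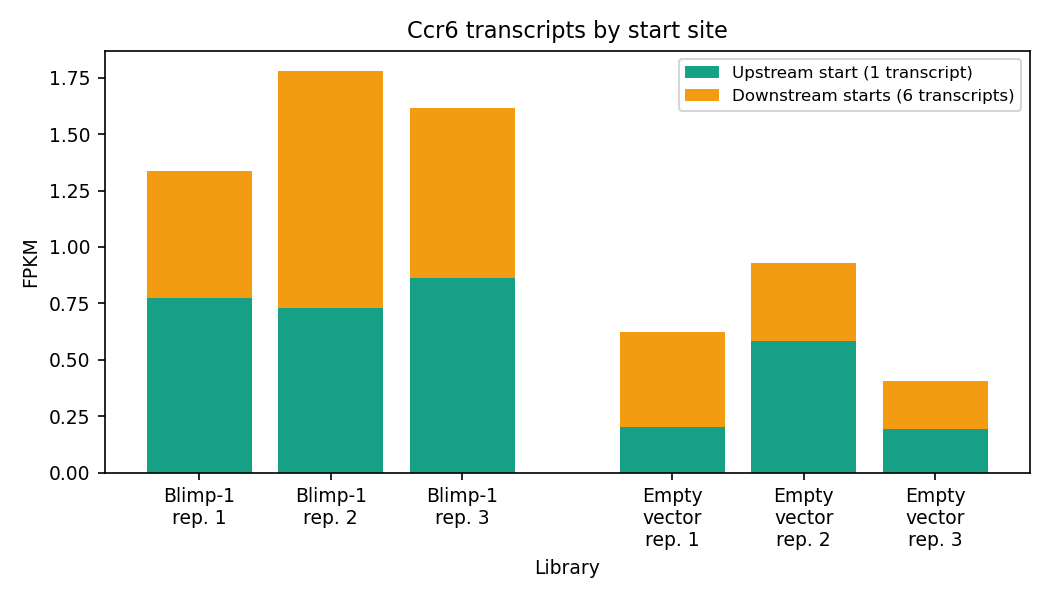
Ccr6 FPKM in each library, in Blimp-1 cells on the left and empty vector on the right, split into the transcript of the upstream start (green) and the sum of the 6 transcripts of the downstream starts (orange). Both parts are higher in each Blimp-1 library than in any empty vector library. The total is 1.34 to 1.78 FPKM in Blimp-1 cells, against 0.405 to 0.927 FPKM in empty vector cells. Ccr6 met the filter through its Blimp-1 libraries alone, and how the reads were divided between the parts cannot be checked here.

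Blimp-1 is known to bind DNA at sequences built around GAAAG, and the bases upstream of starts of Ccr6 and Cxcr3 are shown because their log2 fold changes, 0.65 and 0.42, were the largest of the tested receptors, favoured by the filter for Ccr6. Each line is 250 bases before an annotated start, read in the direction of the gene, from the RefSeq promoter table of build GRCm38.p6. GAAAG on either strand is in capitals, so the other strand reads CTTTC.
Ccr6 first RefSeq start, chr17:8235793-8236042, plus strand: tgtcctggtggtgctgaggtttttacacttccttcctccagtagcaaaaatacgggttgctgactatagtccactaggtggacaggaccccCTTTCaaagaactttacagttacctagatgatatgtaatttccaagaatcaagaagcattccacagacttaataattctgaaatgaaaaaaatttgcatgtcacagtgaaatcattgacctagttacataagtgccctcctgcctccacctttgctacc
Ccr6 second RefSeq start, chr17:8242276-8242525, plus strand: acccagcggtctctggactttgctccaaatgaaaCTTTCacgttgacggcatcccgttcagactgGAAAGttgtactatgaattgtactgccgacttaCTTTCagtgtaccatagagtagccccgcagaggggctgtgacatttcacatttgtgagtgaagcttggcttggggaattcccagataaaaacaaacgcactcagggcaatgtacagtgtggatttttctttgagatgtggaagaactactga
Cxcr3, chrX:101734148-101734397, minus strand: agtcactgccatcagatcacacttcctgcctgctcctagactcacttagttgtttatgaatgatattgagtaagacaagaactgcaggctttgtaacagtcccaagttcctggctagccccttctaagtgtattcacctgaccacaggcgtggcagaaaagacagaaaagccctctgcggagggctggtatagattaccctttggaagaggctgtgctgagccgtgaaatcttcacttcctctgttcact
The Ccr6 windows do not cover all the starts whose FPKM is given above. GENCODE begins the transcript of the upstream start at position 8236212, past the end of the first window. The second window ends just before the start of NM_009835, and the other 5 downstream transcripts begin at 8243811 to 8245065. The second Ccr6 window held 3 matches, 1 on the strand of the gene and 2 on the other, and the first held 1. The Cxcr3 window held 0 matches. At least 1 match was found in 51.5% of 32851 windows of the same length, and 3 or more in 5.1%. All 9 genes had entries, in 10 windows, and 7 of these had a match. The longer form AGNGAAAG was in 0 of the 10 windows and in 7.3% of all windows. A match describes letters in these windows only, and no binding data were analysed here.

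Ccr8 and Ccr4 are receptors of Th2 and regulatory T cells, with the ligands Ccl1 and Ccl8 for Ccr8 in mice and Ccl17 and Ccl22 for Ccr4. Ccr8 was at 2.94, 2.33 and 2.26 FPKM in Blimp-1 cells (replicates 1 to 3), against 1.4, 2.07 and 1.92 FPKM in empty vector cells. The groups did not overlap, as for 2.29% of all tested genes in this direction and 2.34% in the other. Most of the difference came from pair 1, with log2 differences of 0.72, 0.12 and 0.16 in pairs 1 to 3. It averaged 2.51 ± 0.376 FPKM in Blimp-1 cells and 1.8 ± 0.352 FPKM in empty vector cells (SD, n = 3 each). The log2 fold change was 0.33, with a 95% interval of -0.03 to 0.69 without the block and of -0.01 to 0.67 with it (limma adjusted p = 0.998 and 0.252). Without pair 1 the blocked value was 0.14. Ccr8 rested on an estimated 148, 126 and 90 reads in Blimp-1 cells and 30, 94.1 and 39.1 reads in empty vector cells. Ccr4 was at 17.6, 22.4 and 19.5 FPKM in Blimp-1 cells, against 16.2, 22 and 17.1 FPKM in empty vector cells. It was higher in Blimp-1 cells in 3 of 3 pairs, as were 22.8% of all tested genes, and the groups overlapped almost wholly. Its log2 fold change was 0.10, with a 95% interval of -0.27 to 0.48 without the block and of -0.06 to 0.27 with it (limma adjusted p = 0.998 and 0.412).

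Cxcr6 and Ccr2 varied most over the libraries, and mainly with the replicate number. Cxcr6, the receptor for Cxcl16 on effector and tissue-resident T cells, was at 1.16, 7.55 and 2.61 FPKM in Blimp-1 cells (replicates 1 to 3), against 1.61, 4.96 and 1.81 FPKM in empty vector cells. Ccr2, the receptor for Ccl2 on monocytes and effector T cells, was at 1.7, 12.4 and 7.16 FPKM in Blimp-1 cells, against 3.19, 12.1 and 3.31 FPKM in empty vector cells. Replicate 2 was far above the others for both genes and with both vectors, and replicate 1 was lowest. The highest library was 6.5 times the lowest for Cxcr6 and 7.29 times for Ccr2. On the log2 scale their ranges over the libraries, 1.98 and 2.31, stood at percentiles 99.1 and 99.5 of all tested genes, whose median range was 0.53. Between the vectors Cxcr6 differed by -0.27, 0.52 and 0.36 and Ccr2 by -0.63, 0.03 and 0.92 in pairs 1 to 3. The log2 fold changes were 0.20 for Cxcr6 (95% interval with the block -0.19 to 0.60, limma adjusted p = 0.5) and 0.11 for Ccr2 (-0.58 to 0.79, limma adjusted p = 0.847). Without Blimp-1 replicate 2 these were -0.33 and -0.40 in the fit without the block, which kept the other library of that pair. With whole pairs left out of the blocked fit, Cxcr6 was 0.44, 0.05 and 0.12 without pairs 1, 2 and 3. Ccr2 was 0.48, 0.14 and -0.30. Reads of genes with similar sequences, as some chemokine receptor genes are, can be divided in error by the quantification.

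Like Cxcr6 and Ccr2, the summed markers of B cells were highest in replicate 2 with both vectors, as were 30.5% of all tested genes. Unlike those receptors, they were lowest in replicate 3 with both vectors. Cd79a and Ms4a1 summed to 0.415, 1.82 and 0.243 FPKM in Blimp-1 cells (replicates 1 to 3), against 0.575, 1.72 and 0.335 FPKM in empty vector cells, and 0 of 2 were at 0 in all libraries. Of the NK cell markers Ncr1, Klrb1c and Klrd1, 1 was at 0 in all libraries, Ncr1, and the sum, nearly all Klrd1, was 15.1, 30.4 and 12.8 FPKM in Blimp-1 cells, against 12.7, 26.2 and 3.19 FPKM in empty vector cells. The monocyte and macrophage markers Lyz2, Csf1r, Cd14 and Adgre1 summed to 0.0167 to 0.189 FPKM in Blimp-1 cells and 0.132 to 0.488 FPKM in empty vector cells. The dendritic cell markers Flt3, Siglech and Zbtb46 summed to 0.834, 0.58 and 0.502 FPKM in Blimp-1 cells (replicates 1 to 3), against 0.421, 0.333 and 0.288 FPKM in empty vector cells. Their sum was higher in each Blimp-1 library than in any empty vector library, as were Ccr6, Ccr8 and in all 2.29% of tested genes. Most of the difference was Zbtb46, which did not meet the filter, at 0.692, 0.362 and 0.308 FPKM in Blimp-1 cells, against 0.296, 0.111 and 0.153 FPKM in empty vector cells. The other markers overlapped between the vectors. Flt3 was at 0.0158 to 0.0751 FPKM in Blimp-1 cells and 0.0148 to 0.0417 FPKM in empty vector cells. Siglech was at 0.104 to 0.178 FPKM in Blimp-1 cells and 0.11 to 0.18 FPKM in empty vector cells. The part of any of these cell types in the receptor levels was not tested. In bulk RNA, fewer cells that express a receptor and less of its RNA per cell cannot be told apart.

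Cxcr4, the receptor for Cxcl12 that holds many blood cells in bone marrow, was at 31.1, 33.3 and 32 FPKM in Blimp-1 cells (replicates 1 to 3), against 32.4, 32.8 and 25.2 FPKM in empty vector cells. Only empty vector replicate 3 stood below the rest, and the groups overlapped. Cxcr4 averaged 32.2 ± 1.1 FPKM in Blimp-1 cells and 30.1 ± 4.23 FPKM in empty vector cells (SD, n = 3 each). The log2 fold change was 0.10, with a 95% interval of -0.13 to 0.33 with the block (limma adjusted p = 0.566), and it was -0.02 without empty vector replicate 3. That library also had the most Hba-a1, an erythroid globin gene, at 18.7 FPKM, against 0.318 to 2.98 FPKM in Blimp-1 cells and 2.01 and 2.08 FPKM in the other empty vector libraries. Its part in this result was not tested.

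Gpr183 was at 9.78, 13.6 and 12.2 FPKM in Blimp-1 cells (replicates 1 to 3), against 9.78, 15.6 and 9.96 FPKM in empty vector cells. Pair 1 was level, pair 2 was lower in Blimp-1 cells and pair 3 was higher. Gpr183 averaged 11.8 ± 1.91 FPKM in Blimp-1 cells and 11.8 ± 3.32 FPKM in empty vector cells (SD, n = 3 each). The log2 fold change was 0.02, with a 95% interval of -0.22 to 0.27 with the block (limma adjusted p = 0.908). Of 7 genes of oxysterol synthesis and sensing, 2 were tested and 0 were called with or without the block. Ch25h and Cyp7b1, whose enzymes make the ligand of Gpr183, were near or at 0. Ch25h was at 0 to 0.0188 FPKM in Blimp-1 cells and 0.0209 to 0.0935 FPKM in empty vector cells, and Cyp7b1 was listed at 0 in all 6 libraries. Hsd3b7, an enzyme of the same route that clears this ligand, averaged 1.32 ± 0.254 FPKM in Blimp-1 cells and 1.4 ± 0.418 FPKM in empty vector cells (SD, n = 3 each). Nr1h2, the oxysterol-sensing nuclear receptor LXR beta, averaged 38.2 ± 2.32 FPKM in Blimp-1 cells and 44.3 ± 6.7 FPKM in empty vector cells (SD, n = 3 each; log2 fold change -0.20, limma adjusted p = 0.232 with the block).

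Ccr9, the gut-homing receptor for Ccl25, was barely detected. It was at 0.0261, 0.0436 and 0.0529 FPKM in Blimp-1 cells (replicates 1 to 3), against 0.0249, 0.0516 and 0.0261 FPKM in empty vector cells, an estimated 2.3 to 10.4 reads per library. It did not meet the filter. The difference of mean FPKM was 0.00669, with p = 0.5 in a two-sided exact permutation test whose smallest possible p is 0.1. With so few reads and 3 libraries per vector, a difference could not be called.

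**Figure D3:**
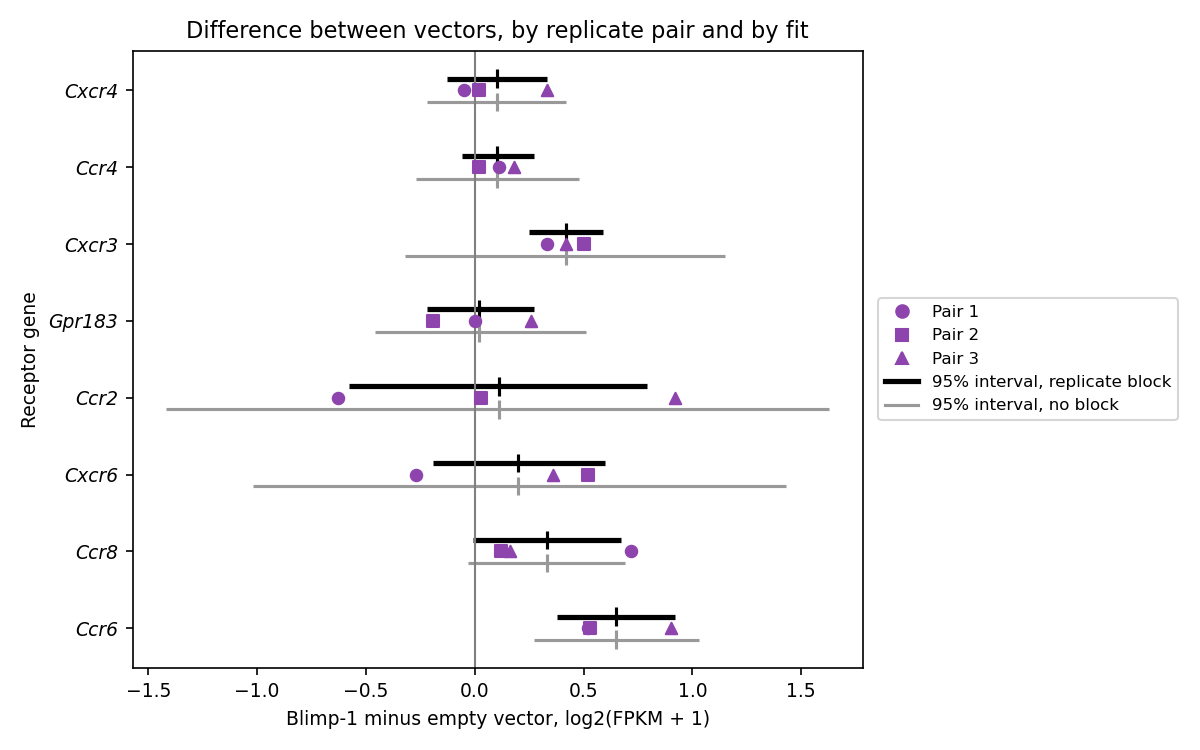
Blimp-1 minus empty vector on the log2(FPKM + 1) scale for the 8 tested receptors, with purple markers for pairs 1 to 3, black bars for the 95% interval with the replicate block and grey bars for that without it. The black bars of Cxcr3 (0.25 to 0.59) and Ccr6 (0.38 to 0.92) lie above 0, and those of the other 6 receptors cross it. Ccr6 was tested through its Blimp-1 libraries alone.

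For most of the receptors the replicate number accounted for more of the variation than the vector did. In a division of the sum of squares of log2(FPKM + 1), the replicate number held 77.9% for Cxcr3, 87.2% for Ccr4, 84.8% for Gpr183, 86.3% for Ccr2, 91.9% for Cxcr6 and 45.5% for Cxcr4. The medians over all tested genes were 75.5% for the replicate number and 9.5% for the vector, so these shares are common in the data. The vector held 82.3% for Ccr6 and 58.7% for Ccr8, 21.5% for Cxcr3, and 0.2% to 14.6% for the other 5. Ccr6 met the filter through its Blimp-1 libraries alone, which favoured a large vector share, and nothing is read from its value. Of the 8 tested receptors, 7 were highest in replicate 2 with both vectors, as were 30.5% of all tested genes. The exception was Ccr8, which was highest in replicate 1 in Blimp-1 cells and in replicate 2 in empty vector cells.

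**Figure D4:**
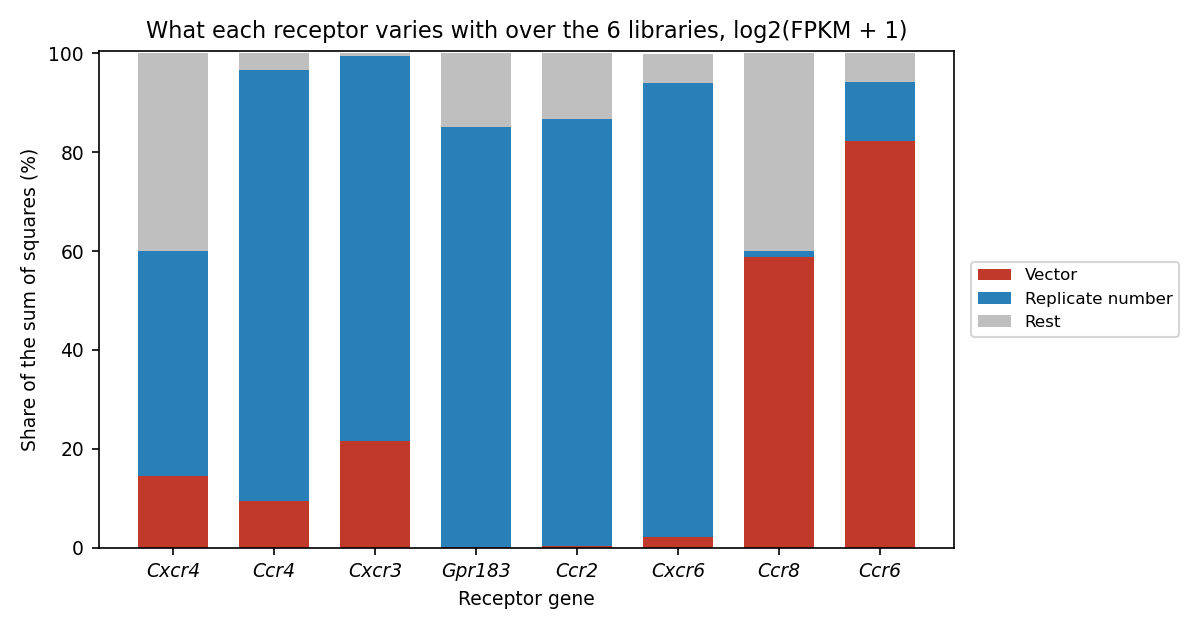
Share of the sum of squares of log2(FPKM + 1) over the 6 libraries that goes with the vector (red), the replicate number (blue) and the rest (grey), for each tested receptor. The vector holds 82.3% for Ccr6 and 58.7% for Ccr8, and the replicate number holds the largest share for the others. Ccr6 was tested through its Blimp-1 libraries alone, which favoured a large vector share.

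Most of the receptors moved together over the 6 libraries, a grouping seen in the values. Cxcr3, Cxcr6, Ccr2, Ccr4 and Gpr183 followed each other, with Pearson correlations of log2(FPKM + 1) from 0.82 (Cxcr3 with Gpr183) to 0.95, while Cxcr4 had 0.40 to 0.51 and Ccr6 0.42 to 0.69 with these 5. Ccr8 ran from -0.03 with Ccr2 to 0.41 with Cxcr3 among these 5, and had 0.66 with Ccr6 and 0.10 with Cxcr4. Same-numbered libraries are not independent, so these describe 6 libraries in 3 pairs. Cxcr6 and Ccr2 are on mouse chromosome 9, as are 5 of the 9 receptor genes. The genes most like each receptor over the 6 libraries were Rida (0.986) and Slfn10-ps (0.985) for Cxcr3, Stk3 (0.993) and Akap7 (0.982) for Ccr6, and Inf2 (0.988) and Ntf5 (0.98) for Ccr8. They were Cd79b (0.999), a B cell receptor component, and Zkscan3 (0.994) for Cxcr6, and Osbpl5 (0.992) and AI847159 (0.991) for Ccr2. For Ccr4 they were Galnt7 (0.996) and AI504432 (0.995), for Gpr183 Traf3ip3 (0.998) and Tle4 (0.994), and for Cxcr4 Thtpa (0.988) and Zfp459 (0.985). A correlation above 0.9 was common for receptors that followed the replicate number, with 488 of 10871 genes for Gpr183 and 12 for Ccr8.

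Ligands of the 9 receptors were hardly expressed by the cells themselves. Of 20 chemokine genes 3 were tested, and 0 were called with or without the block. Ccl20, Ccl1, Ccl8, Cxcl12 and Ccl2 were listed at 0 in all 6 libraries. Ccl22, a ligand of Ccr4, was at 0.134, 1.29 and 0.0678 FPKM in Blimp-1 cells (replicates 1 to 3), against 0.637, 1.02 and 0 FPKM in empty vector cells. Ccl25, the ligand of Ccr9, averaged 1.12 ± 0.108 FPKM in Blimp-1 cells and 1.33 ± 0.327 FPKM in empty vector cells (SD, n = 3 each), and Ccl9 averaged 1.2 ± 0.145 FPKM in Blimp-1 cells and 1.17 ± 0.0464 FPKM in empty vector cells. Ccl5, a chemokine of effector T cells, was at 27.8, 35.5 and 20.3 FPKM in Blimp-1 cells, against 14.4, 14.4 and 6.57 FPKM in empty vector cells.

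Of 15 other chemokine receptor genes, 4 were tested and 0 were called with or without the block, with a median log2 fold change of 0.04. Ccr7 was at 199, 222 and 155 FPKM in Blimp-1 cells (replicates 1 to 3), against 210, 246 and 186 FPKM in empty vector cells (log2 fold change -0.16, limma adjusted p = 0.232 with the block), lower in 3 of 3 pairs. Ccrl2, an atypical receptor, averaged 3.58 ± 0.834 FPKM in Blimp-1 cells and 3.47 ± 0.518 FPKM in empty vector cells. Cxcr2, known from neutrophils, averaged 3.29 ± 0.446 FPKM in Blimp-1 cells and 3.11 ± 0.534 FPKM in empty vector cells, and Cxcr1, its close relative, 1.6 ± 0.499 FPKM in Blimp-1 cells and 1.31 ± 0.787 FPKM in empty vector cells (SD, n = 3 each). Of 18 other chemoattractant receptor genes 9 were tested and 0 were called with or without the block, with a median of -0.13. S1pr1, which senses sphingosine 1-phosphate and lets T cells leave lymph nodes, was at 44.5, 125 and 70 FPKM in Blimp-1 cells, against 62.7, 156 and 67.4 FPKM in empty vector cells, again highest in replicate 2 with both vectors. S1pr4, another receptor for the same lipid, averaged 73.6 ± 10.9 FPKM in Blimp-1 cells and 83.9 ± 21.2 FPKM in empty vector cells. P2ry10, a lysophospholipid receptor gene, averaged 72.2 ± 10.9 FPKM in Blimp-1 cells and 61.4 ± 17 FPKM in empty vector cells, and Gpr18 averaged 17.9 ± 4.7 FPKM in Blimp-1 cells and 19.9 ± 4.86 FPKM in empty vector cells (SD, n = 3 each).

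The genes that the receptors signal through spanned a wide range, with mean levels over the 6 libraries from 0.0213 FPKM for Gnai1, a G protein alpha subunit gene, to 304 FPKM for Rac2, a GTPase of actin remodelling. Of 27 genes for G proteins, receptor kinases, arrestins and their effectors, 24 were tested and 0 were called with or without the block, with a median log2 fold change of -0.02. Rac2 averaged 318 ± 18 FPKM in Blimp-1 cells and 290 ± 36.3 FPKM in empty vector cells. Gnai2, the main inhibitory G protein alpha subunit of lymphocytes, averaged 254 ± 33.7 FPKM in Blimp-1 cells and 274 ± 26.1 FPKM in empty vector cells, and Gnb2, a beta subunit, 180 ± 39.2 FPKM in Blimp-1 cells and 201 ± 46.3 FPKM in empty vector cells. Grk2, a kinase that desensitises these receptors, averaged 155 ± 8.81 FPKM in Blimp-1 cells and 143 ± 15.9 FPKM in empty vector cells (SD, n = 3 each). Of 6 transcription factor genes of helper T cell lineages, 5 were tested and 0 were called with or without the block, with a median of 0.06. Klf2, a factor of quiescent T cells that sustains S1pr1, averaged 62.3 ± 19.6 FPKM in Blimp-1 cells and 86.7 ± 21.6 FPKM in empty vector cells, and Gata3, the Th2 factor, 19.3 ± 2.36 FPKM in Blimp-1 cells and 21.8 ± 4.92 FPKM in empty vector cells. Bcl6, the factor of follicular helper cells, averaged 9.4 ± 1.18 FPKM in Blimp-1 cells and 7.27 ± 3.56 FPKM in empty vector cells, and Rora, which is active in Th17 cells, 6.29 ± 2.38 FPKM in Blimp-1 cells and 5.03 ± 2.09 FPKM in empty vector cells (SD, n = 3 each).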

How the data were processed

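RNA-seq of 6 libraries was deposited by the authors as 1 table of FPKM values per RefSeq transcript. CASAVA 1.8.2, Cufflinks 2.2, Partek 6.6 and build mm9 are named, per the submitters' processing notes, without saying which did what. The table's header names no unit. For the aligner, annotation and filters the sources used here give nothing. Library input was 2 ug of RNA and sequencing was single-end for 50 cycles, per the labels' protocols.

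Transcripts were assigned to genes through RefSeq names (GRCm38.p6), 29310 by accession, 348 by symbol and 192 with the deposited symbol kept, and 18 had no name. FPKM was summed per gene. Genes that reached 1 FPKM in 3 or more of the libraries entered limma (3.58.1, R 4.3.3) as log2(FPKM + 1). The model had vector alone and a mean-variance trend, and p-values were Benjamini-Hochberg adjusted over all genes. The blocked fit added the replicate number. What a number marks is not in the labels, and the pairing rests on the correlation of deviations given above. The script was tested on simulated data without a replicate effect. That does not show how well either fit finds changes in these libraries. Depth is an estimate from the lowest FPKM values of single-transcript genes and GENCODE lengths.

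Named were all 9 receptors, Prdm1, and per list the genes called or up to 4 with the highest mean FPKM, ligands of the receptors at a mean of 1 FPKM or more, and the 2 genes most correlated with each receptor. Other names were chosen after their values were seen. The receptors and lists were chosen with earlier results of these data known. Some listed genes are not reported here and were left out of the lists' counts and sums.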

Additional observations from a re-analysis of the deposited data

How the results depend on the processing

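Alternatives were a pseudocount of 0.1, no filter, a filter of 5 FPKM, median centring, the highest transcript per gene, limma without a trend, the replicate block, and leaving out each library or, with the block, each pair. Over all genes, 1 higher and 1 lower gene were called with the block, and 1 higher gene with median centring, against 0 and 0 in the comparison as reported. Leaving out single libraries gave 0 or 1 gene higher, 0 lower and 0 receptors. Leaving out pairs from the blocked fit gave 1, 3 and 540 genes higher and 2, 9 and 672 lower without pairs 1, 2 and 3, and 0, 0 and 3 receptors higher. The other settings called 0 genes, and 120, 397, 79, 131 and 123 genes had an unadjusted limma p below 0.05 with the pseudocount, no filter, the 5 FPKM filter, the highest transcript and no trend.

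Cxcr3, Ccr4, Ccr6 and Ccr8 kept their direction in every alternative that tested them, at 0.14 to 0.67, 0.02 to 0.23, 0.53 to 1.21 and 0.14 to 0.47 on the log2 scale. The alternatives reuse the same 6 libraries, and the share of all genes that kept their direction was not computed. The filter of 1 FPKM, which Ccr6 met through its Blimp-1 libraries alone, favoured its direction wherever it was used. Ccr6 was not tested with the 5 FPKM filter or the highest transcript, and Cxcr6 and Ccr8 were not tested with the 5 FPKM filter. With libraries or pairs left out, the log2 fold change ran from -0.40 to 0.76 for Ccr2, -0.33 to 0.66 for Cxcr6, -0.10 to 0.23 for Gpr183 and -0.02 to 0.18 for Cxcr4 (0.16 at most without single libraries). It turned negative without Blimp-1 replicate 2 for Ccr2 (-0.40), Cxcr6 (-0.33) and Gpr183 (-0.07), without Blimp-1 replicate 3 for Ccr2 (-0.04), without empty vector replicate 1 for Ccr2 (-0.17), Cxcr6 (-0.01) and Gpr183 (-0.08), without empty vector replicate 3 for Ccr2 (-0.15), Gpr183 (-0.07) and Cxcr4 (-0.02), and with the block without pair 3 for Ccr2 (-0.30), Gpr183 (-0.10) and Cxcr4 (-0.01). The cause was not tested. The replicate block as such changed no call of a receptor. Ccr9, Ccr6 and Ccr8 rest on the fewest reads.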
